A study of Mus musculus with 6 samples.

Results

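The C/EBP factors Cebpa, Cebpb, Cebpd, Cebpe and Cebpg and the repressor gene Gfi1 were examined in bone marrow haematopoietic stem cells (HSC) of wildtype and PU.1 knockdown mice. Members were taken by gene symbol: every probe set whose only symbol in the platform annotation was one of these 6 genes. This gave 9 probe sets of 5 genes, out of 44991 probe sets and 18186 genes on the array. Cebpa and Gfi1 had 1 probe set each, Cebpb and Cebpd had 2 each and Cebpg had 3, while no probe set carried the symbol Cebpe, which was not analysed here. The wildtype group (WT) and the PU.1 knockdown group (PU.1 KD) had 3 Affymetrix Mouse Genome 430 2.0 arrays each, and each array held RNA of flow-sorted HSC pooled from 3 animals. The means by which PU.1 was lowered, the strain and age of the mice and the sort's surface markers were not stated in the labels.

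C/EBP proteins bind DNA as dimers through a basic region and a leucine zipper, and any family member can pair with another. In blood formation, C/EBP alpha is required for the step from early progenitors to granulocyte and monocyte progenitors, and C/EBP epsilon for the late stages of neutrophils and eosinophils. C/EBP beta takes part when granulocyte output rises in infection, C/EBP delta is an inflammation-induced relative, and C/EBP gamma has no activation domain of its own and acts as a dimer partner. Gfi1 is a zinc finger repressor that recruits the demethylase LSD1 and its partner CoREST, restrains the division of HSC and is required for neutrophil development. PU.1, encoded by Spi1, works beside C/EBP alpha on myeloid genes and is antagonised by Gfi1.

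Promoter windows are shown for Cebpa, Cebpb and Gfi1, 3 of the genes that were low together in WT pool 2 (below). RefSeq windows of 300 bases, 250 before the start of transcription and 50 from it on, were found for 4 of the 6 genes in build GRCm38.p6. They are chr7:35119043-35119342 on the plus strand for Cebpa, chr2:167688665-167688964 on the plus strand for Cebpb and chr5:107725756-107726055 on the minus strand for Gfi1. Capitals mark matches to 5 motifs searched on both strands. The PU.1 type was GAGGAA and the C/EBP type was TTGCNNAA. The Gfi1 type was AAATCA and the AP-1 type was TGANTCA. The TATA box type, TATAAA, was added after the sequences were seen.
Cebpa: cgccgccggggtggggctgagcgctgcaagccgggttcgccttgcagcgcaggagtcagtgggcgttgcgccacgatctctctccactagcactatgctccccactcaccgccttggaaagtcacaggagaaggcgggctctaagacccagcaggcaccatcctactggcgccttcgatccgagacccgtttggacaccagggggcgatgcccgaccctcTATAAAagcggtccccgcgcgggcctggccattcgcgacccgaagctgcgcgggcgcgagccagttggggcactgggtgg
Cebpb: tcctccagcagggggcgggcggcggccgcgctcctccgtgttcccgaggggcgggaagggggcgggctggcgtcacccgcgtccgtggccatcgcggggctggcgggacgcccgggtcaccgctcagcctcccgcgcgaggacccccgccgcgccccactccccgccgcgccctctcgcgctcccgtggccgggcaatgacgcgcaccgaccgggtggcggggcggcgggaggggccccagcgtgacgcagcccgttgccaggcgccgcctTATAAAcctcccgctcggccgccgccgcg
Gfi1: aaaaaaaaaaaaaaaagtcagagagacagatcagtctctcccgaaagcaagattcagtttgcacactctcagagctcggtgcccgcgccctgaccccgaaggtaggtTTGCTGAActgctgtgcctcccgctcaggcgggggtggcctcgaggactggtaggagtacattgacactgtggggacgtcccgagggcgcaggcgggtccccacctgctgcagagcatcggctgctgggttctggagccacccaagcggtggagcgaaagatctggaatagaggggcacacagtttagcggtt
The Cebpa and Cebpb windows each held 1 TATAAA, the first beginning 30 bases before the annotated start and the second at base 22 of the transcript, and TATAAA is found in 13.6% of 32851 windows. The Gfi1 window printed held 1 C/EBP type match, TTGCTGAA, beginning 143 bases before the start, and such matches are found in 10.8% of all windows. The second Gfi1 window of the table, chr5:107724294-107724593 on the minus strand, held 0 matches to any of the 5 motifs and is not printed. No match of the PU.1, Gfi1 or AP-1 type lay in the 5 windows of Cebpa, Cebpb, Cebpg and Gfi1, while 28.3%, 14% and 7.81% of all windows hold one. A match is a string of letters and no measured binding site.

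Values below are log2 intensities after quantile normalisation, on the scale log2(value + 16), which understates changes of dim probe sets. Differences are PU.1 KD minus WT with the standard error (SE) and 95% interval of the limma fit, and adjusted p-values are Benjamini-Hochberg values over all probe sets. The exact permutation test of 3 arrays against 3 cannot give a p below 0.1. The targeted gene checked the labels first. Spi1 (1418747_at) had log2 values of 10.13, 9.42 and 10.08 in WT pools 1, 2 and 3 and of 8.73, 8.55 and 7.06 in PU.1 KD pools 1, 2 and 3. Spi1 was thus lower in every knockdown pool than in any wildtype pool, with a difference of -1.76 (SE 0.43) and an adjusted p of 0.503 by limma.

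None of the 5 measured genes passed the test between PU.1 KD and WT pools. Over the 9 probe sets, 0 had a limma adjusted p under 0.05, and 0% of all probe sets did. At an unadjusted p under 0.05 there were also 0 of 9, beside 7.11% of all probe sets. The groups overlapped on every one of the 9, while they did not overlap for 12.9% of all probe sets. The brightest probe set was lower in the knockdown pools for 3 genes, Cebpa, Cebpg and Gfi1, and higher for 2, Cebpb and Cebpd, with a median difference of -0.03 beside 0.02 over all genes. The spread among the wildtype pools was wide for Cebpa, Cebpb and Cebpd, each of which was lowest in WT pool 2. In RNA of pooled sorted cells, fewer cells of a type and less RNA per cell cannot be told apart.

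**Figure D1:**
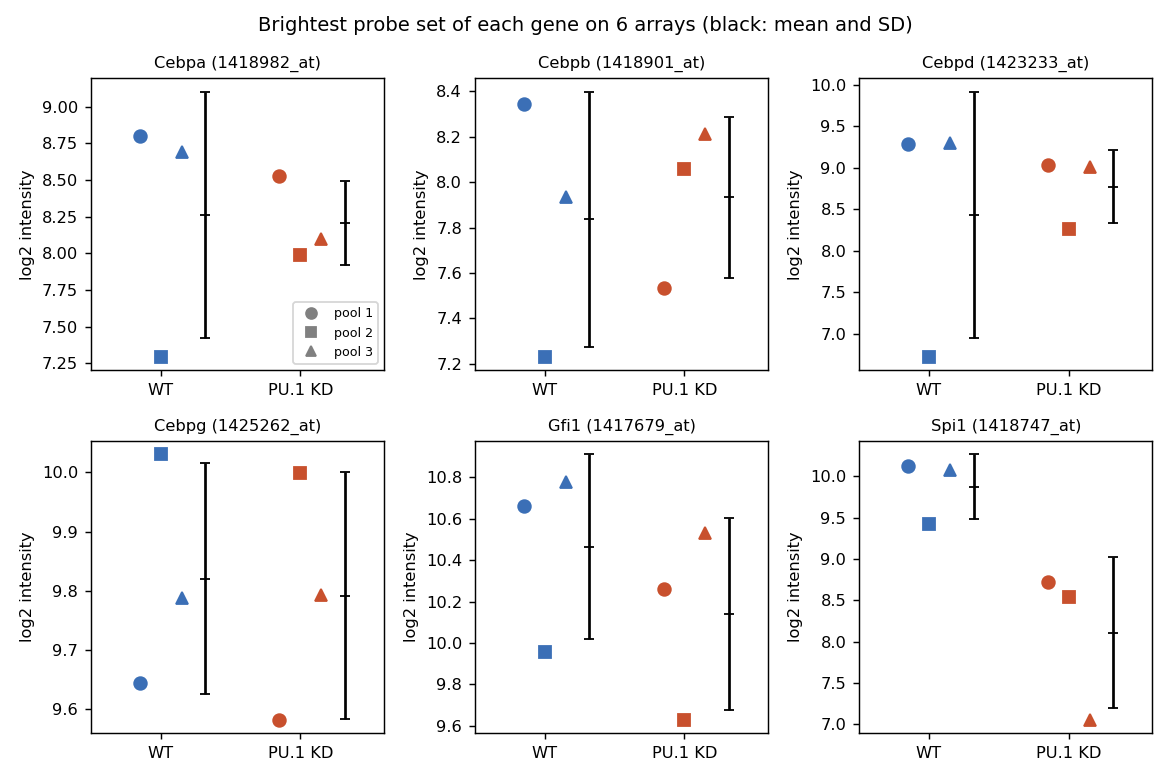
Log2 intensity (vertical axes, each panel with its own range) of the brightest probe set of each measured gene and of Spi1 in 3 WT pools (blue) and 3 PU.1 KD pools (red), with the marker shape giving the pool number and the black bar the mean and SD of the group. Cebpa, Cebpb and Cebpd are lowest in WT pool 2, at 7.29, 7.23 and 6.72, and only Spi1 has groups that do not overlap.

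Cebpa encodes C/EBP alpha and lies at chr7:35119293-35121928 in GRCm38.p6. On its probe set 1418982_at the log2 values were 8.80, 7.29 and 8.69 in WT pools 1, 2 and 3. In PU.1 KD pools 1, 2 and 3 they were 8.53, 7.99 and 8.10. All 3 knockdown values thus fell between WT pool 2 and the other WT pools, so the knockdown group lay inside the wildtype range. The means were 8.26 ± 0.84 (SD, n = 3) in WT and 8.20 ± 0.29 (SD, n = 3) in PU.1 KD pools. The difference was -0.06 (SE 0.39, 95% interval -0.95 to 0.84), with an adjusted p of 0.985 by limma and an exact permutation p of 0.9. The interval holds changes of nearly 1 log2 unit either way, so that the comparison shows neither a change nor its absence. As deposited, the intensities were 438, 150.0 and 394 in the WT pools and 317, 236 and 261 in the PU.1 KD pools.

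Cebpd, at chr16:15887286-15889545, encodes C/EBP delta, which is induced by cytokines and inflammation. It had the widest spread of the members. On 1423233_at the log2 values were 9.28, 6.72 and 9.30 in WT pools 1, 2 and 3 and 9.04, 8.26 and 9.01 in PU.1 KD pools 1, 2 and 3. WT pool 2 lay far below the 5 other arrays, and PU.1 KD pool 2 was the next lowest. The wildtype range of 2.58 log2 units was wider than that of 99.7% of all probe sets. As deposited, the intensity was 92.9 in WT pool 2 beside 621 and 608 in WT pools 1 and 3. The mean was 8.43 ± 1.49 (SD, n = 3) in WT and 8.77 ± 0.44 (SD, n = 3) in PU.1 KD pools, a difference of 0.34 (SE 0.65, interval -1.17 to 1.85) with a limma adjusted p of 0.938. The dimmer probe set 1456605_at, below the median brightness of the array, also had its lowest value in WT pool 2, at 5.79 beside 6.32 and 6.33, and 5.93, 6.05 and 6.20 in the knockdown pools. Its difference of -0.08 (SE 0.19) had the opposite sign to that of the bright one.

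Cebpb encodes C/EBP beta, at chr2:167688915-167690432. On 1418901_at the log2 values were 8.34, 7.23 and 7.94 in WT pools 1, 2 and 3 and 7.53, 8.06 and 8.21 in PU.1 KD pools 1, 2 and 3. WT pool 2 was again lowest, but here PU.1 KD pool 1 came next and pools 2 and 3 of the knockdown reached the upper wildtype range. The difference was 0.10 (SE 0.30, interval -0.60 to 0.80), with a limma adjusted p of 0.964 and an exact permutation p of 0.8. The other probe set, 1427844_a_at, was brighter than only 17.5% of all probe sets. Its values ran from 5.05 to 5.68 in WT and from 5.17 to 5.51 in PU.1 KD pools, a difference of 0.03 (SE 0.20), and its lowest array was WT pool 3, not WT pool 2.

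Cebpg, at chr7:35046422-35056566 and on the minus strand close to Cebpa, encodes the broadly expressed partner C/EBP gamma. Its brightest probe set, 1425262_at, had log2 values of 9.64, 10.03 and 9.79 in WT pools 1, 2 and 3 and of 9.58, 9.999 and 9.79 in PU.1 KD pools 1, 2 and 3. In contrast to the other C/EBP genes, WT pool 2 was the highest array, and the 6 values spanned only 0.45 log2 units. The difference was -0.03 (SE 0.17, interval -0.43 to 0.37, limma adjusted p 0.982). On 1451639_at the difference was 0.12 (SE 0.15). The dim probe set 1425261_at had 6.67, 6.66 and 6.46 in WT and 6.18, 6.61 and 6.19 in PU.1 KD pools, and its difference of -0.27 (SE 0.17) had the smallest p among the 9 probe sets (0.147 unadjusted and 0.788 adjusted by limma). Leaving out 1 array, this difference ran from -0.41 (without PU.1 KD pool 2) to -0.20, and that of 1451639_at from 0.048 (without PU.1 KD pool 2) to 0.22 (without PU.1 KD pool 3). The 3 probe sets did not share a sign.

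Gfi1, at chr5:107716655-107725805, was measured on 1417679_at. The log2 values were 10.66, 9.96 and 10.78 in WT pools 1, 2 and 3 and 10.26, 9.63 and 10.53 in PU.1 KD pools 1, 2 and 3. Pool 2 was the lowest of its group in both genotypes, and the knockdown values lay below those of WT pools 1 and 3. The means were 10.47 ± 0.45 (SD, n = 3) and 10.14 ± 0.46 (SD, n = 3), a difference of -0.32 (SE 0.29, interval -1.005 to 0.36), with a limma adjusted p of 0.853 and an exact permutation p of 0.5. The deposited intensities were 1639.9, 1038 and 1692 in WT and 1094, 791 and 1513 in PU.1 KD pools. PU.1 KD pool 3, which had the lowest Spi1, had the highest Gfi1 among the 3 knockdown pools. It also had their highest values of the brighter Cebpb and the dimmer Cebpd probe set. Cebpa and the brighter Cebpd probe set were highest in PU.1 KD pool 1, which had the highest Spi1 of the knockdown pools. Among the WT pools, pool 2 had the lowest Spi1 and also the lowest Gfi1 and Cebpb on that probe set. A relation to the Spi1 level was not tested.

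Most of the differences changed sign when a single array was left out, while those of Gfi1 and of the Cebpg probe sets 1425261_at and 1451639_at kept it. Without WT pool 2, Cebpa differed by -0.54 (SE 0.20), Gfi1 by -0.58 (SE 0.27) and Cebpd by -0.52 (SE 0.26) on its bright and by -0.26 (SE 0.16) on its dim probe set. On these 4 of 9 probe sets all knockdown pools then lay below both remaining WT pools, beside 11.4% of all probe sets. The unadjusted limma p was 0.033 for Cebpa, 0.0711 for Gfi1 and 0.0882 for the bright Cebpd probe set, and 8.58% of all probe sets had a p under 0.05 without that pool. Over all probe sets no member passed, with an adjusted p of 0.537 for Cebpa. Cebpb turned to -0.21 (SE 0.25) on 1418901_at, and the bright Cebpg probe set to 0.08 (SE 0.18), while the dim Cebpb probe set stayed at 0.03. For Gfi1 another array mattered about as much: without PU.1 KD pool 2, Gfi1 differed by only -0.07 (SE 0.28, unadjusted limma p 0.816). Without the same pool the dim Cebpg probe set 1425261_at differed by -0.41 (SE 0.17, unadjusted limma p 0.0406, adjusted p 0.692) and its groups did not overlap. The shares of all probe sets for that fit are not given here, and groups of fewer arrays separate more easily. Leaving out WT pool 1 or 3 moved Cebpa to 0.21 and 0.16 and the bright Cebpd probe set to 0.76 and 0.78. These moves were smaller than those without WT pool 2. WT pool 2 was chosen for mention after its values were seen, and nothing in the labels sets it apart.

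**Figure D2:**
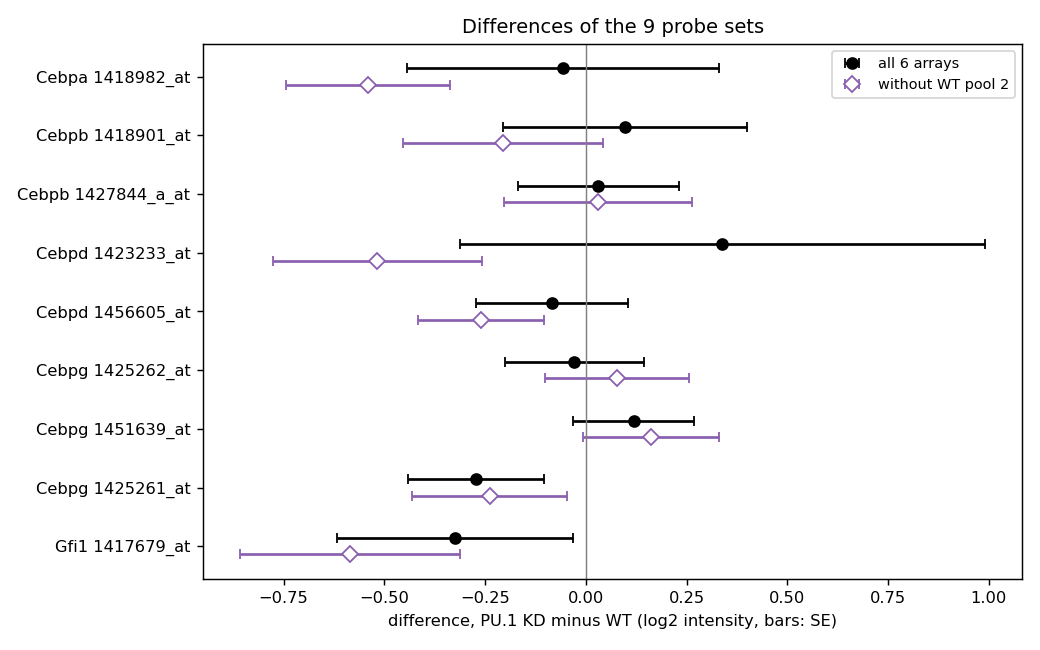
Difference in log2 intensity, PU.1 KD minus WT (horizontal axis, bars 1 SE of the limma fit), for the 9 probe sets of the 5 measured genes (vertical axis), with all 6 arrays (filled) and without WT pool 2 (open). Cebpa moves from -0.06 to -0.54 and the bright Cebpd probe set from 0.34 to -0.52, while the Cebpg probe sets move little.

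Marker genes of other cells moved with the same pool. Of 11 neutrophil marker genes, 11 were measured and 0 were at or below the floor on any array. Their mean log2 value was 10.19 in WT pool 2, 11.97 and 11.37 in WT pools 1 and 3, and 12.00, 11.46 and 11.40 in PU.1 KD pools 1, 2 and 3. Their summed intensity ran from 23697 to 61172 in WT and from 47401 to 61610.2 in PU.1 KD pools. Mpo, the myeloperoxidase gene of primary granules, had a log2 value of 12.53 in WT pool 2, its lowest, and of 13.03 in WT pool 1. Monocyte markers, of which 7 of 8 were measured, averaged 7.31 in WT pool 2 beside 8.41 and 8.43, and 8.04, 8.10 and 6.63 in the knockdown pools. Their summed intensity ran from 1957 to 4407 in WT and from 1823 to 3571 in PU.1 KD pools, with 0 at the floor. In all, 9 of the 9 marker lists other than the HSC list had their lowest wildtype mean in WT pool 2. Megakaryocyte markers (8 of 8 measured) averaged 8.94 there beside 10.23 and 10.04, and 8.94, 7.13 and 8.82 in PU.1 KD pools 1, 2 and 3, with a summed intensity of 7549.9 to 15613 in WT and 2535 to 7929 in PU.1 KD pools. Eosinophil markers (7 of 10) averaged 7.14 beside 8.93 and 8.11, and 6.69, 5.90 and 5.38 in the knockdown pools. Their summed intensity ran from 2093 to 12918 in WT and from 249.1 to 1231 in PU.1 KD pools, and 2 of them were at the floor in PU.1 KD pool 2. Mast cell and basophil markers (9 of 10) averaged 6.30 beside 7.43 and 7.17, and 7.63, 7.72 and 8.66 in the knockdown pools. Between the groups the median difference was -1.50 for megakaryocyte markers, -2.27 for eosinophil markers and 1.08 for mast cell and basophil markers, and 0 genes of these lists passed the adjusted threshold. Erythroid, T and NK, B cell and stromal markers had median differences of 0.23, 0.15, -0.43 and -0.22. The part of these cells in the members' values was not tested.

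Markers of the labelled cell type were read in the same way, and their mean is no measure of a pool's purity. Of 12 HSC marker genes 10 were measured, and 0 were at the floor on any array. They averaged 10.09 in WT pool 2, the highest array, 9.23 and 9.41 in WT pools 1 and 3 and 9.41, 9.33 and 9.39 in the knockdown pools. Their summed intensity ran from 7509.8 to 15688 in WT and from 8352 to 9306 in PU.1 KD pools. Kit, the stem cell factor receptor gene, was at 11.17 in WT pool 2 and between 10.19 and 10.54 on the other arrays. HSC markers were thus present throughout, and so were transcripts of neutrophil granules, in both groups.

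**Figure D3:**
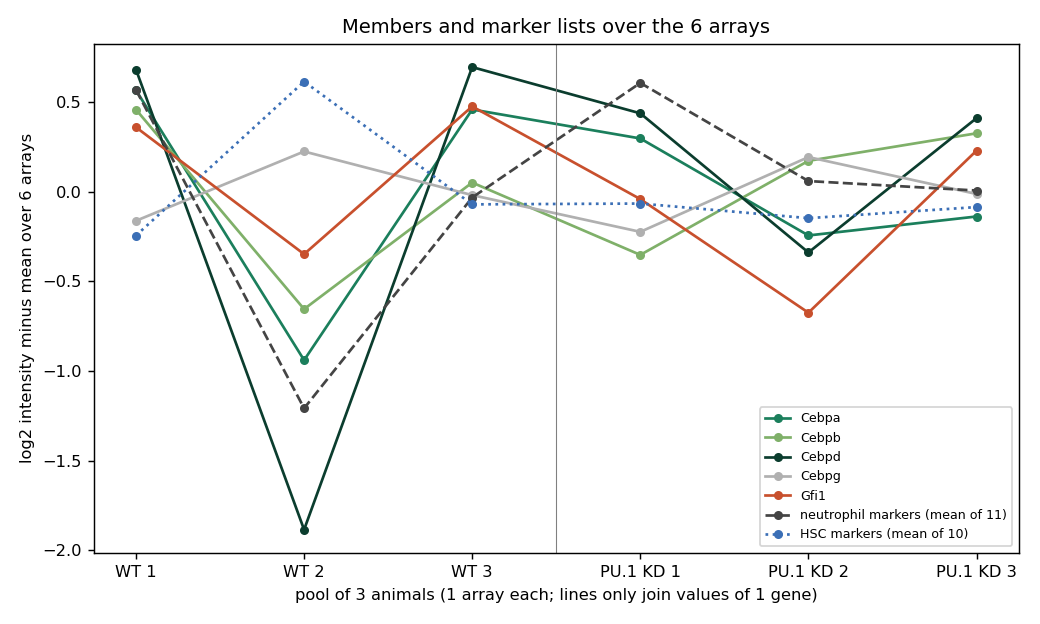
Log2 intensity minus its own mean over the 6 arrays (vertical axis) for the brightest probe set of each measured gene and for the mean of the neutrophil and the HSC markers, by pool (horizontal axis). In WT pool 2 Cebpa, Cebpb, Cebpd, Gfi1 and the neutrophil markers are below their means, and Cebpg and the HSC markers above.

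Genes with the most similar profile were sought for the 4 members whose values spanned at least 1 log2 unit, among 12008 other genes above the median brightness. Likeness was the root mean square difference between profiles centred on their own means over the 6 arrays. Nearest to Cebpd was Cst7, which encodes the leukocyte protease inhibitor cystatin F, at a root mean square difference of 0.0622 where the median gene had 0.923. Its log2 values were 11.15, 8.72 and 11.28 in WT pools 1, 2 and 3 and 10.98, 10.26 and 11.09 in PU.1 KD pools 1, 2 and 3, with the same low WT pool 2. Next came Lrp2bp at 0.112. Nearest to Cebpa were Gadd45b, a stress-induced growth arrest gene, at 0.124 and the chitinase-like protein gene Chil1 at 0.124, where the median gene had 0.541. Larp1b, an RNA-binding protein gene of the La-related family, at 0.0750 and the ubiquitin ligase gene Rnf125 at 0.121 were nearest to Cebpb. For Gfi1 they were Tmem53 at 0.0812 and the ceramide kinase gene Cerk at 0.0958. With 6 arrays and this many genes some profiles are close in any case, and no test was made.

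Among dimer partners and regulators of C/EBP proteins, 21 of 22 listed genes were measured, 14 with higher and 7 with lower means in the knockdown pools. The list median was 0.09, beside 0.02 over all genes, of which 46.6% were lower. Over all probe sets 0 of the 21 passed limma's adjusted threshold, beside 0% of all genes, and 1 had an unadjusted p under 0.05, beside 7.63% of all genes. That gene was Batf, a zipper protein that pairs with Jun factors, with a mean of 7.72 ± 0.22 in WT and 8.24 ± 0.27 in PU.1 KD pools (SD, n = 3) and a difference of 0.52 (SE 0.19). The pseudokinase gene Trib3 differed by 0.59 (SE 0.28). On the other side were Myb, a transcription factor gene of progenitors, at -0.22 (SE 0.14) and the stress factor gene Atf4 at -0.21 (SE 0.15), a sign shown by 2 of its 3 probe sets. The groups did not overlap for 3 genes of the list, Myb, Atf4 and Pcbp2, all lower, beside 13.8% of all genes.

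Receptors and primary granule genes driven by C/EBP alpha were 12 of 12 measured, with 6 higher and 6 lower, a median difference of 0.02 and 0 past the adjusted threshold. Csf2ra, which encodes one chain of the receptor for GM-CSF, had 9.92, 9.30 and 10.11 in WT pools 1, 2 and 3 and 8.87, 8.82 and 8.62 in PU.1 KD pools 1, 2 and 3. Its difference of -1.004 (SE 0.22) was the only one of the 12 at an unadjusted p under 0.05 (limma p 0.00203, adjusted p 0.473), beside 7.63% of all genes. The second Csf2ra probe set differed by -0.13. The integrin gene Itgam differed by -0.70 (SE 0.42) on a dim probe set, from -1.07 without WT pool 2 to -0.22 without WT pool 1. Elane, the neutrophil elastase gene, had 10.82 in WT pool 2 beside 12.82 and 12.79 in the other WT pools and 12.32 to 12.80 in the knockdown pools, a difference of 0.49 (SE 0.50) that turned to -0.17 without that pool. Il6ra, the interleukin 6 receptor gene, differed by 0.12 (SE 0.14) on a dim probe set and by 0.46 on its second. The list median was -0.21 without WT pool 2, with 2 of 12 higher.

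Secondary granule and late neutrophil genes, many of which depend on C/EBP epsilon, went both ways. Of 14 listed, 13 were measured, 7 higher and 6 lower, with a median difference of 0.35 that was -0.30 without WT pool 2. None passed over all probe sets, while 4 of 13 had an unadjusted p under 0.05, beside 7.63% of all genes. Cd177, a neutrophil surface protein gene, averaged 7.66 ± 1.36 in WT and 9.70 ± 0.75 in PU.1 KD pools (SD, n = 3), a difference of 2.04 (SE 0.65, limma adjusted p 0.604). Ngp, a secondary granule gene, was at 12.74, 11.11 and 11.79 in WT pools 1, 2 and 3 and at 13.05, 12.80 and 13.03 in the knockdown pools, so the groups did not overlap, with a difference of 1.08 (SE 0.37). Chil3, a chitinase-like protein gene, had values of 7.99, 7.04 and 4.09 in the knockdown pools, the last at the floor, beside 10.31, 8.25 and 10.79 in WT, a difference of -3.41 (SE 1.02). The fourth at that p was Camp, the cathelicidin gene, with a difference of 1.08 (SE 0.41). In all, the groups did not overlap for 3 of 13 genes, Ngp and Camp higher and Chil3 lower, beside 13.8% of all genes. Cybb, the catalytic subunit gene of the phagocyte oxidase, differed by -1.08 (SE 0.58). The neutrophil markers given above share 7 of these genes and were lowest in the same WT pool 2.

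Of 5 genes listed as repressed by C/EBP alpha, 3 were higher and 2 lower, with a median difference of 0.45 and 0 past the adjusted threshold. The median was 0.04 without PU.1 KD pool 3. The list is short, and the place of Id1 in it is uncertain. Myc, the growth-promoting factor gene, had 10.28, 10.38 and 10.26 in WT and 10.95, 10.70 and 10.66 in PU.1 KD pools, a difference of 0.46 (SE 0.14, limma adjusted p 0.591). It was the 1 gene of 5 with groups that did not overlap, beside 13.8% of all genes, and with an unadjusted limma p under 0.05, beside 7.63%. Id1, an inhibitor of helix-loop-helix factors, differed by 0.60 (SE 0.38). E2f1, a cell cycle factor gene that C/EBP alpha restrains, differed by -0.07 (SE 0.14), a sign shown by 1 of its 3 probe sets. For Sox4, a factor gene of immature cells, the difference was -0.08 (SE 0.29) and turned to 0.25 without WT pool 2, and its 8 probe sets ranged from -0.51 to 0.32.

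Inflammatory genes bound by C/EBP beta and C/EBP delta were 16 of 16 measured, with 8 higher and 8 lower and a median difference of -0.002. None passed over all probe sets, and 5 of 16 had an unadjusted p under 0.05, 1 higher and 4 lower, beside 7.63% of all genes. Socs3, a feedback inhibitor of cytokine signalling, was at 7.23, 7.22 and 5.83 in WT and at 8.46, 7.997 and 8.91 in PU.1 KD pools. The groups did not overlap, the difference was 1.70 (SE 0.40, limma adjusted p 0.497), and its 3 probe sets differed by 1.03 to 1.70. The neutrophil chemokine gene Cxcl2 differed by -0.69 (SE 0.16) on a dim probe set, and Cd14, the lipopolysaccharide co-receptor gene, by -0.96 (SE 0.29). The chemokine gene Ccl3, at -1.76 (SE 0.55), and Il6st, the shared signalling chain of interleukin 6 type receptors, at -0.78 (SE 0.25), were the other lower genes at that p. For the same 5 of 16 genes, 1 higher and 4 lower, the groups did not overlap, beside 13.8% of all genes. Nos2, the inducible nitric oxide synthase gene, differed by 0.19 (SE 0.16).

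**Figure D4:**
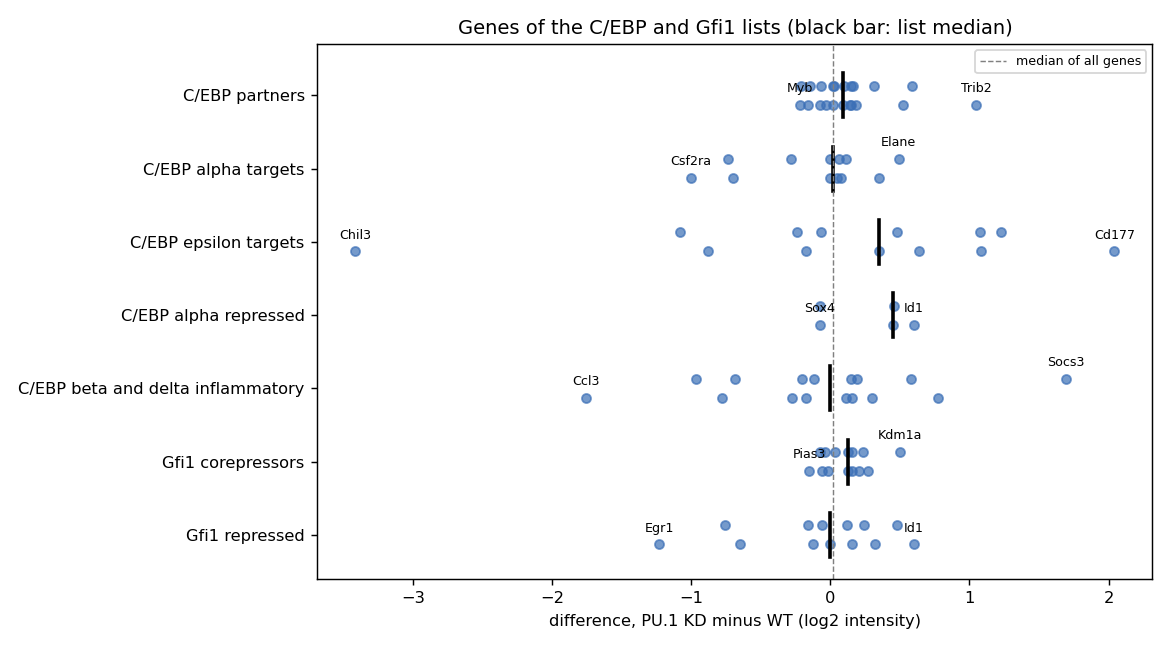
Difference in log2 intensity, PU.1 KD minus WT (horizontal axis), of each measured gene in the 7 lists of C/EBP and Gfi1 partners and targets (vertical axis, points offset for legibility), with the list median as a black bar and the median of all genes, 0.02, as a dashed line. The outermost gene of each list is named, and the C/EBP epsilon targets spread widest, from Chil3 at -3.41 to Cd177 at 2.04.

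Corepressors and relatives of Gfi1 were 14 of 14 measured, with 9 higher and 5 lower, a median difference of 0.13 and 0 past the adjusted threshold. The median was 0.04 without PU.1 KD pool 2, 0.07 without WT pool 3 and 0.06 with the values as deposited. Kdm1a, which encodes the demethylase LSD1, had 9.29, 9.30 and 8.93 in WT pools 1, 2 and 3 and 9.78, 9.67 and 9.56 in PU.1 KD pools 1, 2 and 3. It was the 1 gene of 14 with an unadjusted p under 0.05, beside 7.63% of all genes, and with groups that did not overlap, beside 13.8%. It had a difference of 0.50 (SE 0.16, limma adjusted p 0.604), and its other probe set differed by 0.46. The histone methyltransferase gene Ehmt2 differed by 0.23 (SE 0.15). Pias3, whose product binds Gfi1, differed by -0.15 (SE 0.18) and Rcor2, of the CoREST family, by -0.08 (SE 0.13), and the Pias3 value was positive on its second probe set (0.05) and 0.0056 without WT pool 2. Gfi1b, the closest relative of Gfi1, differed by 0.15 (SE 0.30).

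Of 15 genes listed as repressed or antagonised by Gfi1, 13 were measured, with 6 higher and 7 lower, a median difference of -0.005 and 0 past the adjusted threshold. The early growth response gene Egr1, whose family opposes Gfi1 in the choice between macrophage and neutrophil, had 11.55, 12.07 and 11.55 in WT and 10.77, 10.51 and 10.19 in PU.1 KD pools, with a difference of -1.23 (SE 0.21, limma adjusted p 0.382). Egr2 differed by -0.65 (SE 0.24) on a dim probe set and by -0.19 on its second. These were the 2 genes of the list with an unadjusted p under 0.05, and the 2 of 13 whose groups did not overlap, beside 7.63% and 13.8% of all genes. Cdkn1a, the gene of the cell cycle inhibitor p21, differed by 0.48 (SE 0.34), and Id1, also on this list, is given above.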

How the data were processed

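RNA of sorted HSC was amplified in 2 rounds of in-vitro transcription and hybridised to Mouse Genome 430 2.0 arrays, per the labels' protocols. The deposited table holds the authors' intensity of each probe set on a linear scale, with array medians of 81.4 to 91.5 and 264 to 409 values below 0 per array. Background correction, scaling and software were not stated in the labels, and arrays have no read depth: their number limits the precision. Values under 1 were set to 1, log2(value + 16) was taken and arrays were quantile normalised. limma 3.58.1 in R 4.3.3 fitted all 44991 probe sets (lmFit, then eBayes). Its two-sided p-values were adjusted by Benjamini-Hochberg, the threshold was 0.05, and the test was checked on simulated data. Plots were made in matplotlib 3.10.9 under Python 3.11.15.

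Names come from the platform's annotation, in which 34921 probe sets had 1 symbol, 930 had several and 9140 had none. A gene in a list is represented by its brightest probe set. Named were all members, Spi1, up to 2 genes of smallest p in each direction per list and the 2 nearest profiles per member. Pcbp2, Camp, Ccl3, Il6st, Gfi1b, Mpo and Kit were named after their values were seen. Members, lists and tests were chosen with earlier results of these data known. Probe sets ending in _x_at, such as those used for Socs3, Trib3, Myb, Atf4 and E2f1, can bind other transcripts too. The labels do not say what a pool number shares across the groups. Deviations of same-numbered pools from their group means correlated, across probe sets, at 0.178, 0.061 and -0.0392. Those of differently numbered pools correlated at -0.198 to 0.154. These values do not settle whether the numbers mark pairs. The main fit took no pairs, and a replicate block was fitted as an alternative. Alternatives were other scalings, pseudocounts of 1 and 64, a filter at the 40th percentile, other variance models, a replicate block and leaving out each array.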

Additional observations from a re-analysis of the deposited data

How the results depend on the processing

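Under the 15 alternatives no member probe set passed the adjusted threshold, and the smallest adjusted p of any was 0.537. Signs were unstable. Without 1 array the differences ran from -0.54 to 0.21 for Cebpa, -0.21 to 0.35 for the bright and -0.13 to 0.19 for the dim Cebpb probe set, -0.52 to 0.78 for the bright and -0.26 to 0.0092 for the dim Cebpd probe set, and -0.13 to 0.078 for the bright Cebpg probe set. Cebpa was 0.05 without PU.1 KD pool 2, 0.21 without WT pool 1 and 0.16 without WT pool 3. Cebpb was -0.04 on 1418901_at without PU.1 KD pool 3 and -0.21 without WT pool 2, and on 1427844_a_at -0.03 without PU.1 KD pool 2, -0.02 without PU.1 KD pool 3 and -0.13 without WT pool 3. Cebpd was -0.52 on 1423233_at without WT pool 2, and on 1456605_at 0.0037 without WT pool 1 and 0.0092 without WT pool 3. Cebpg was 0.076 on 1425262_at without PU.1 KD pool 1 and 0.078 without WT pool 2. With array weights the bright Cebpd probe set turned to -0.11, the bright Cebpg probe set to 0.057 and Sox4 to 0.067. Among list genes, leaving out WT pool 2 turned Elane to -0.17, Pias3 to 0.0056 and Sox4 to 0.25, the ends of ranges reaching 0.83 for Elane and -0.37 for Sox4. With 1 array left out Gfi1b ran from -0.16 (without PU.1 KD pool 2) to 0.38 and Mpo from -0.10 (without WT pool 2) to 0.15, and with array weights Mpo was -0.025. Gfi1 stayed below 0 in every alternative, but ran from -0.58 without WT pool 2 to -0.067 without PU.1 KD pool 2. The other Cebpg probe sets ran from -0.41 to -0.20 (1425261_at) and 0.048 to 0.22 (1451639_at). The median of the C/EBP alpha repressed genes was 0.042 without PU.1 KD pool 3, and that of the Gfi1 corepressors was 0.039 without PU.1 KD pool 2, 0.069 without WT pool 3 and 0.064 with the values as deposited. Leaving out 1 array, the test called 0 to 2 of all probe sets, and the member probe sets whose groups did not overlap numbered 0 to 4 of 9. The 4 were those without WT pool 2, all lower, beside 11.4% of all probe sets. Shares for the other fits are not given here, and groups of fewer arrays separate more easily. With the replicate block, whose numbers are only shared labels, 0 of all and 0 of the member probe sets were called and the Gfi1 p was 0.0748 unadjusted (limma adjusted p 0.719), so the block changed no call. The cause of these turns was not tested. The 3 arrays per group and the spread of the wildtype pools limit what could be seen.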
